A study of Mus musculus with 4 samples.

Results

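The clustered histone genes encode the linker histone H1 and the core histones H2A, H2B, H3 and H4, and lie side by side in a few gene clusters of the mouse genome. They were taken as every protein-coding gene of the count table whose GENCODE M21 symbol begins with Hist1h, Hist2h, Hist3h or Hist4h, which gave 67 of the 52636 genes counted. Of these, 6 encode H1, 18 encode H2A, 18 encode H2B, 12 encode H3 and 13 encode H4. The Hist1 cluster on chromosome 13 holds 54 of them, the Hist2 cluster on chromosome 3 holds 10, the Hist3 cluster on chromosome 11 holds 2, and Hist4h4 stands alone on chromosome 6. A further 3 genes with such symbols are annotated as pseudogenes and were left out.

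The RNA came from tdTomato+ cells sorted by FACS from embryonic kidneys at about E12.5 to E12.75, about 48 h after the first tamoxifen dose. Control embryos carried the Eya1CreER allele and a Cre-dependent tdTomato reporter, and Eya1cKO embryos carried in addition floxed Eya1, so that both groups had received tamoxifen and both had the CreER allele, which labels cells in which the Eya1 locus was active at induction and their descendants. Each group had 2 libraries of 5000 cells each, sorted from combined cell suspensions, from 6 kidneys per genotype harvested from 4 pregnant females according to the sample labels. The paper calls the libraries of a genotype biological replicates, but they are portions of combined cells that were sorted at the same time. The p-values below therefore measure the spread between such portions and not the spread between embryos. The measurement was the number of reads counted on each gene, from 17457452 to 37999342 in all per library, and levels are given as CPM, counts per 1000000 counts of the library after scaling by edgeR's TMM factors, with the SD over n = 2 libraries.

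Histones package DNA into nucleosomes, in which DNA is wrapped around a core of H2A, H2B, H3 and H4, while H1 binds where the DNA enters and leaves the core. Most clustered genes are replication-dependent: they are transcribed when DNA is copied in S phase, have no introns, and give an mRNA that ends in a conserved stem-loop instead of a poly(A) tail. The stem-loop is bound by SLBP and the mRNA is cut a few bases after it with the help of the U7 snRNP. Some clustered genes also give longer, polyadenylated transcripts, above all in cells that leave the cell cycle. The methods state that mRNA was purified from total RNA with magnetic beads before random-primed libraries were made, so the counts are of histone RNA that was retained by that step. The methods name the maker and catalogue number of the beads but do not state their chemistry, and which histone RNAs the step retained was not tested.

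The stem-loop was searched because it decides how these mRNAs end. Within 200 bases after an annotated stop codon it was found in 44 of the 67 genes (65.7%), against 5 of the 21695 other protein-coding genes (0.023%), among them the histone genes H2afx and H2bfm. It began 22 to 59 bases after the stop codon, with a median of 32. Each form is printed in DNA letters as found in the GENCODE M21 transcripts, with the 6 bases of each arm of the stem in capitals and the 4 loop bases in lower case.
Hist1h1c, chr13:23739512-23739527, plus strand, the form of 26 genes: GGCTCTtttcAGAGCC
Hist1h3f, chr13:23544932-23544947, plus strand, the form of 6 genes: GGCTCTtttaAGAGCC
Hist1h4d, the form of 7 genes: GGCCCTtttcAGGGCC
Hist1h4i, chr13:22040966-22040981, minus strand, the form of 2 genes: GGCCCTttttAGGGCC
Hist1h4j, the form of 2 genes: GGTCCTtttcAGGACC
Hist2h2ac, the form of 1 gene: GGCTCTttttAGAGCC
All coordinates are on GRCm38. The 26 genes of the first form encode H1, H2A, H2B or H3, and all 11 H4 genes with a stem-loop had 1 of the 3 forms whose stem differs from it. Of the 23 genes with no match, 17 have fewer than 50 annotated bases after the stop codon, so that the search had little sequence to read. By contrast Hist2h2be, an H2B gene with 2192 annotated bases after its stop codon, held no stem-loop of these forms in the 200 bases searched.

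Promoters of 62 of the 67 genes were matched in RefSeq (GRCm38.p6), each from 250 bases before to 50 bases after the start. A CCAAT box (CCAAT on either strand) was found in every H1, H2A, H2B and H3 promoter matched, in 3 of 12 H4 promoters (25%), and in 37.4% of all 32851 promoters of the table. A TATA box (TATAAA on either strand) was found in 35 of the 62 promoters (56.5%) and in 13.6% of all promoters. The octamer (ATTTGCAT on either strand), the site of POU factors such as Pou2f1, was in 7 of 18 H2A promoters (38.9%) and 6 of 16 H2B promoters (37.5%), in no H1, H3 or H4 promoter, and in 1.74% of all promoters. No motif contains another, and such matches describe the letters only. The promoters of the H1, H2B and H4 genes with the highest level per kilobase of exon are shown, so that the types can be compared, with these motifs in capitals on whichever strand they lie.
Hist1h1c, chr13:23738557-23738856, plus strand: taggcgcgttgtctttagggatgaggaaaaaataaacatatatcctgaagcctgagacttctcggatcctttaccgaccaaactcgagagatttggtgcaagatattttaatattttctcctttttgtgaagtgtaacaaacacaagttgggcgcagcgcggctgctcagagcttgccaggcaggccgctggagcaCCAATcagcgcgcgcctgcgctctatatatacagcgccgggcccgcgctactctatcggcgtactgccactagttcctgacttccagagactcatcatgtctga
Hist3h2ba, chr11:58948661-58948960, plus strand: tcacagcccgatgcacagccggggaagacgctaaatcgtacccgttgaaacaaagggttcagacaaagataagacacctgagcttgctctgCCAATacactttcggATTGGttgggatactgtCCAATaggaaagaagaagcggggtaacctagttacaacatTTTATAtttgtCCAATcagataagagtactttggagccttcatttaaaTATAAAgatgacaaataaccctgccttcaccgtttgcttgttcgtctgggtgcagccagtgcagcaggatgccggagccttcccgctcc
Hist1h4i, chr13:22041313-22041612, minus strand: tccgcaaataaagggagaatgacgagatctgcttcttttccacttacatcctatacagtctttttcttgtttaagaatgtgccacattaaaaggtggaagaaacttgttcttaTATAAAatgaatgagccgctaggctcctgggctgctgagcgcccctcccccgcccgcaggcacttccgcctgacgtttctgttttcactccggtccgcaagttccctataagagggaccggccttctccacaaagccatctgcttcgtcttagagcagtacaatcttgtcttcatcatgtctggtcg
The Hist1h1c promoter held 1 CCAAT box, Hist3h2ba held 4 together with 2 TATA boxes, and Hist1h4i held 1 TATA box and no CCAAT box.

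The clustered histone genes were a small part of the RNA counted. Together they had 2608 counts in Control 1, 2382 in Control 2, 1435 in Eya1cKO 1 and 1294 in Eya1cKO 2, or 74.7, 63.6, 63.5 and 73.8 CPM. The summed level was thus 69.1 ± 7.83 CPM in Control and 68.6 ± 7.25 in Eya1cKO (SD, n = 2 each), a ratio of 0.993, with overlapping libraries. Without Hist3h2a, of which 436 counts fell in Eya1cKO 2 alone, the libraries were at 71.7, 60.8, 63.5 and 48.9 CPM, a ratio of 0.848. The mean level per kilobase over the 4 libraries was at most 14.2 CPM per kb, for Hist3h2ba. Across 11 histone genes outside the clusters, taken as replication-independent, it ran from 6.49 CPM per kb for H2afj to 191 for H2afx, which also holds a stem-loop and is known to give both kinds of mRNA.

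The genes were detected unevenly. A count was present for 54 of the 67 genes in each Control library, for 27 in Eya1cKO 1 and for 24 in Eya1cKO 2, and 8 genes had none in any library. In 26 genes there were counts in Control and none in either Eya1cKO library, and in 0 genes the reverse. Depth differed the same way: 3 counts, the limit used for detection, were 0.0859 and 0.0801 CPM in Control and 0.133 and 0.171 CPM in Eya1cKO, and 26486 and 27091 of all genes had a count in Control against 21455 and 20538 in Eya1cKO. Among genes with a Control mean of 1 up to 10 counts, 15 of 24 clustered histone genes (62.5%) and 4635 of 7943 genes in all (58.4%) were at 0 in both Eya1cKO libraries. From 10 up to 40 counts these were 8 of 19 (42.1%) and 1127 of 4828 (23.3%), and from 40 up to 500 counts 0 of 12 and 70 of 6050 (1.16%). These limits and intervals cover counting error only, and the Eya1cKO libraries differed from each other far beyond it, with a chi-square of 46.5 per degree of freedom over genes, against 9.33 between the Control libraries.

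After edgeR's filter on low counts, 25 of the 67 genes could be tested, and the other 42 had at most 30 counts in any library. In edgeR's quasi-likelihood test with Benjamini-Hochberg adjustment over all 19041 genes tested, 1 of the 25 was higher in Eya1cKO, Hist1h3f, and 0 were lower, where 5.15% of all genes tested were called higher and 4.41% lower. At an unadjusted p under 0.05 there were 9 of the 25, 8 of them lower, against 5479 of all 19041 genes. DESeq2's Wald test called 1 higher, again Hist1h3f, and 0 lower. The fitted log2 fold change was negative in 17 genes and positive in 8, with a median of -1.10, against 0.016 over all genes tested. The 4 tested genes at 0 in Eya1cKO lie below that median at their bounds too, so that their fitted values do not bear on it. It was -0.05 over the 8 genes with at least 10 counts in every library and -0.45 over the 21 with mostly unique sequence. Both Eya1cKO libraries lay below both Control libraries in 13 of the 25 genes (30.0% of all genes tested did so) and above them in 2 (25.3% of all genes), and in 10 genes the libraries overlapped. A gene that passes the filter through its Control counts alone is bound to be lower in Eya1cKO, so these counts do not stand for all 67 genes.

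**Figure D1:**
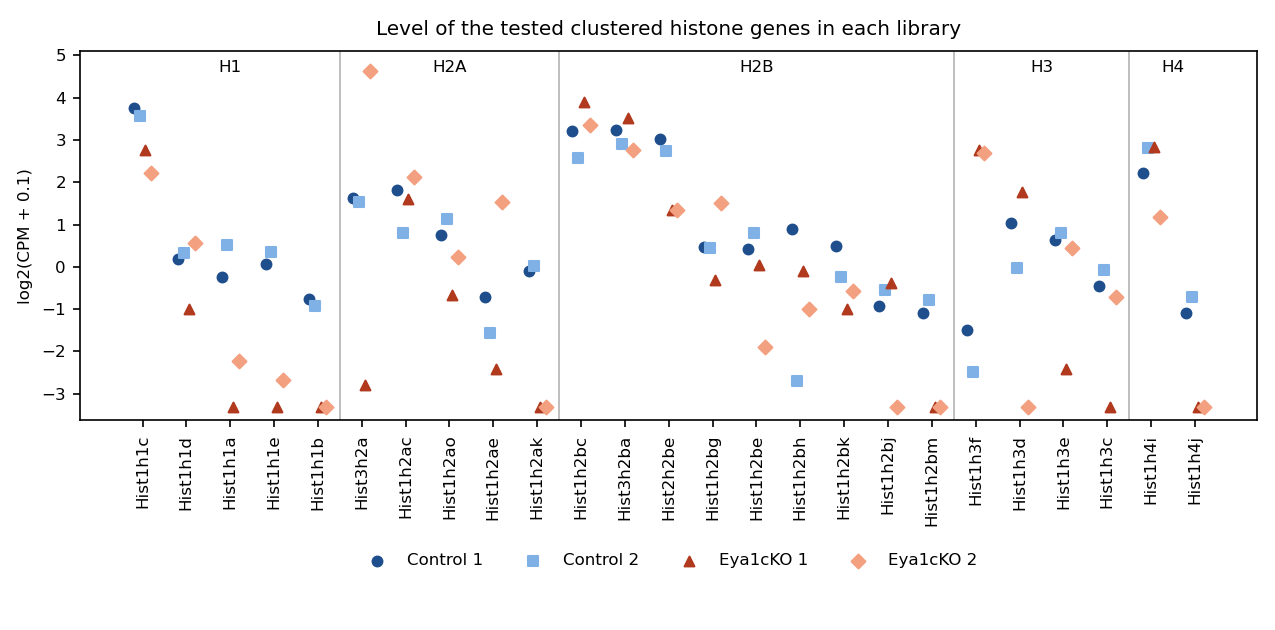
Level of the 25 tested clustered histone genes in each of the 4 libraries, as log2(CPM + 0.1) on the vertical axis, with genes grouped by histone type and ordered by mean level. Hist1h3f has both Eya1cKO points far above both Control points, Hist2h2be and Hist1h1c have them below, and Hist3h2a has the Eya1cKO libraries at opposite ends.

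All 5 tested H1 genes had a negative log2 fold change and none passed the test. Hist1h1a, Hist1h1b and Hist1h1e entered it through their Control counts alone, so that their direction was fixed. Hist1h1c, which encodes the linker histone H1.2 and was the most abundant H1 gene, had 468 and 441 counts in Control and 151 and 80 in Eya1cKO. All 4 of its libraries stood apart by genotype, at 12.6 ± 1.15 against 5.62 ± 1.50 CPM, with a log2 fold change of -1.13 (SE 0.44, adjusted p = 0.145 in edgeR). Without Control 1 its log2 fold change was -1.06 and without Control 2 it was -1.24, and Hist1h1c passed in neither fit. It passed the threshold without Eya1cKO 1 (-1.47) and without Eya1cKO 2 (-0.93). In those fits the share of all genes called lower was 14.8% and 15.5%, against 4.41% with all libraries, and the share called higher 18.7% and 19.8%, against 5.15%.
Hist1h1e, encoding H1.4, had 33 and 44 counts in Control and 0 and 1 in Eya1cKO, a ratio of pooled levels of 0.0234 (exact 95% interval 5.85e-04 to 0.134). Its exon overlaps those of Gm11398 and Hist1h2be on the same strand over 25.7% of its length. Hist1h1a, encoding H1.1, had 26 and 50 counts in Control and 0 and 2 in Eya1cKO, a ratio of 0.0474 (0.00564 to 0.177). Both genes were near the limit of detection in Eya1cKO, and their adjusted p in edgeR was 0.117 and 0.147. Hist1h1b, encoding H1.5, had 17 and 16 counts in Control and 0 in both Eya1cKO libraries, at least 2.67-fold lower against the larger floor of 3 counts per library (adjusted p = 0.106 in edgeR). Hist1h1d, encoding H1.3, had 36 and 43 counts in Control and 9 and 24 in Eya1cKO, and its CPM overlapped between genotypes (log2 fold change -0.41, SE 0.89, adjusted p = 0.806 in edgeR). The testis H1 gene Hist1h1t had 3 counts in Control 1 and none elsewhere. Summed, the H1 genes were at 16.7 and 15.9 CPM in Control and 7.08 and 6.10 CPM in Eya1cKO, a ratio of 0.405. Without Hist1h1c that ratio was 0.263, from 153 or fewer counts per library.

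Among the H2A genes the libraries of a genotype often disagreed. Hist3h2a had 105 and 104 counts in Control, 1 in Eya1cKO 1 and 436 in Eya1cKO 2, that is 2.89 ± 0.162 CPM in Control and 12.4 ± 17.5 CPM in Eya1cKO. The Eya1cKO libraries lay on either side of the Control libraries, and the log2 fold change of 1.92 (SE 1.25, adjusted p = 0.355 in edgeR) was 3.09 (adjusted p = 3e-07) without Eya1cKO 1 and -5.92 (adjusted p = 0.0063) without Eya1cKO 2, in fits that called 18.7% of all genes higher and 15.5% lower. Its exon overlaps that of Trim17 on the same strand over 33.0% of its length, and Trim17 itself had 28, 41, 0 and 26 counts in the same order of libraries. Hist1h2ac, which encodes a replication-dependent H2A, had 120 and 62 counts in Control and 66 and 75 in Eya1cKO, with overlapping levels (log2 fold change 0.48, SE 0.70, adjusted p = 0.699 in edgeR). Hist1h2ao had 55 and 78 against 12 and 19 counts (log2 fold change -1.25, SE 0.82, adjusted p = 0.353 in edgeR), but only 6.9% of its 75-base windows occur in no other gene. Hist1h2ak had 29 and 34 counts in Control and 0 in both Eya1cKO libraries, at least 5.08-fold lower (adjusted p = 0.105 in edgeR). Of the 18 H2A genes, 5 were tested, 2 with a negative and 3 with a positive log2 fold change. The summed H2A level was 10.3 and 8.73 CPM in Control, 3.76 in Eya1cKO 1 and 33.3 in Eya1cKO 2, and without Hist3h2a it was 7.30, 5.96, 3.72 and 8.49 CPM, overlapping in both cases.

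The H2B genes summed to 35.0 and 25.5 CPM in Control and 32.2 and 23.5 in Eya1cKO, the highest of the types in every library but Eya1cKO 2, where H2A was higher. Its 3 leading genes behaved differently. Hist1h2bc, a gene with 2 exons in the annotation, had 319 and 218 counts in Control and 336 and 177 in Eya1cKO, or 7.48 ± 2.34 and 12.5 ± 3.38 CPM. Both Eya1cKO libraries were above both Control libraries in CPM, with a log2 fold change of 0.78 (SE 0.44, adjusted p = 0.288 in edgeR). Hist3h2ba, of the small Hist3 cluster, had 326 and 276 counts in Control and 257 and 117 in Eya1cKO, or 8.35 ± 1.39 and 9.02 ± 3.33 CPM, and overlapped (log2 fold change 0.16, SE 0.45, adjusted p = 0.851 in edgeR). Hist2h2be, encoding an H2B that is known for a long polyadenylated transcript, had 282 and 248 counts in Control and 55 and 43 in Eya1cKO, or 7.35 ± 1.03 and 2.44 ± 0.0122 CPM. Its libraries stood apart by genotype, with a log2 fold change of -1.58 (SE 0.59, adjusted p = 0.135 in edgeR), and all of its 75-base windows were unique to it. Without Control 1 its log2 fold change was -1.46 and without Control 2 it was -1.74, and Hist2h2be passed in neither fit. It passed the threshold without Eya1cKO 1 (-1.59) and without Eya1cKO 2 (-1.60), the fits in which 14.8% and 15.5% of all genes were called lower. Hist1h2bm had 13 and 18 counts in Control and 0 in Eya1cKO, at least 2.49-fold lower (adjusted p = 0.108 in edgeR).

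Hist1h3f was the clustered histone gene whose difference passed the test. It had 9 and 3 counts in Control and 150 and 112 in Eya1cKO, or 0.169 ± 0.126 and 6.51 ± 0.179 CPM. With fewer than 10 counts in both Control libraries, it entered the test through its Eya1cKO counts alone, so that its direction was fixed. The Eya1cKO libraries agree closely and lie far above both Control libraries, with a log2 fold change of 5.26 (SE 0.91, adjusted p = 0.0108 in edgeR). It lies at chr13:23544052-23545312 on the plus strand as 1 exon, and encodes a replication-dependent H3. Of its 75-base windows, 58.0% occur in no other gene, and 381 are shared with Hist1h3e, so that reads from shared stretches could not be placed on it alone. Hist1h3e had 51 and 62 counts in Control and 2 and 22 in Eya1cKO (log2 fold change -1.38, SE 1.09, adjusted p = 0.437 in edgeR), in the opposite direction. The counts of Hist1h3f and Hist1h3e together were 60 and 65 in Control and 152 and 134 in Eya1cKO, or 1.72, 1.74, 6.73 and 7.64 CPM, so that the sum also lay higher in both Eya1cKO libraries. The difference of Hist1h3f no longer passed without Control 1 (adjusted p = 0.51) or without Control 2 (adjusted p = 0.6), when 8 and 7 of all genes (0.0378% and 0.0328%) were called lower and 15 and 16 (0.0709% and 0.0749%) higher.

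Of the other 11 H3 genes 3 were tested, and none passed. Hist1h3d had 68 and 33 counts in Control, 75 in Eya1cKO 1 and 0 in Eya1cKO 2 (log2 fold change 0.42, SE 1.10, adjusted p = 0.841 in edgeR). Hist1h3c had 22 and 32 against 0 and 9 counts. Summed, the H3 genes were at 6.41 and 4.03 CPM in Control and 11.4 and 8.15 CPM in Eya1cKO, a ratio of 1.87, and without Hist1h3f at 6.16, 3.95, 4.74 and 1.77 CPM, a ratio of 0.643. Among the H4 genes, Hist1h4i had 160 and 257 counts in Control and 160 and 38 in Eya1cKO, or 5.72 ± 1.61 and 4.62 ± 3.48 CPM (log2 fold change -0.23, SE 0.64, adjusted p = 0.851 in edgeR). It took most of the H4 counts, which summed to 6.27 and 9.45 CPM in Control and 9.07 and 2.62 CPM in Eya1cKO, and overlapped. Hist1h4j had 13 and 19 counts in Control and 0 in Eya1cKO, at least 2.57-fold lower (adjusted p = 0.110 in edgeR). Hist2h4, Hist1h4b and Hist4h4 were not tested, with 12, 4, 20 and 0 counts, 8, 13, 12 and 0 counts, and 5, 2, 7 and 0 counts in Control 1, Control 2, Eya1cKO 1 and Eya1cKO 2.

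**Figure D2:**
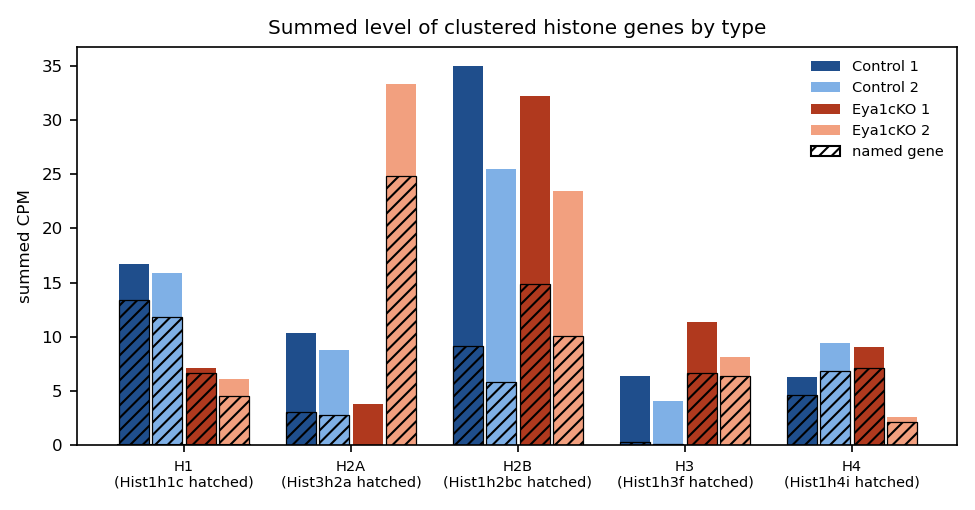
Summed CPM of the clustered histone genes of each type in each library (bars, from 0), with the share of the most abundant gene of the type hatched. H1 is lower in both Eya1cKO libraries (7.08 and 6.10 CPM) than in both Control libraries, H3 is higher with Hist1h3f included (a ratio of 1.87) and not without it (0.643), and the tall H2A bar of Eya1cKO 2 is mostly Hist3h2a.

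The clusters differed in their summed levels. The 10 Hist2 genes had 8.88 and 7.05 CPM in Control and 3.32 and 2.45 in Eya1cKO, a ratio of 0.362, and all 43 of the counts in Eya1cKO 2 fell on Hist2h2be. The 54 Hist1 genes had 53.3 and 46.4 CPM in Control and 48.5 and 39.8 in Eya1cKO, a ratio of 0.885 with overlapping libraries. The Hist3 genes had 12.3 and 10.1 against 11.4 and 31.5 CPM, a ratio of 1.91 that was 1.08 without Hist3h2a. Within the Hist1 cluster, gaps of over 100000 bases divide the genes into 4 runs. The first, chr13:21715763-21837530 with 18 genes, had 5.18 and 5.37 CPM in Control and 1.90 and 1.43 in Eya1cKO, a ratio of 0.315. Of its 5 tested genes none passed the test, and 4 (Hist1h1b, Hist1h2ak, Hist1h2bm and Hist1h4j) had entered the test through their Control counts alone, so that their direction was fixed. The third, chr13:23531050-23764406 with 29 genes, had 41.4 and 32.6 CPM in Control and 38.4 and 35.6 in Eya1cKO, a ratio of 1.0. It holds Hist1h3f, Hist1h2bc, Hist1h2ac and 5 H1 genes, and of its 14 tested genes 8 had a negative log2 fold change. The first run has a median of 19.1% unique windows per gene and the third 64.5%.

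Pairs of H2A and H2B genes that start in opposite directions from a shared promoter are a feature of these clusters. There were 12 such pairs, with 176 to 306 bases between the annotated starts. In 8 of them the H2B gene had the higher mean CPM, and in 2 both genes were tested. In the pair of Hist1h2ac and Hist1h2bc, 251 bases apart, the log2 fold changes were 0.48 and 0.78. In the pair of Hist1h2ae and Hist1h2bg, 176 bases apart, they were 1.76 and 0.33, where Hist1h2ae had 18, 9, 2 and 49 counts and Hist1h2bg 45, 47, 16 and 48. None of these 4 genes passed the test.

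Reads of 75 bases that match several genes equally well are left out by default in the counting, so the share of a gene's sequence that is its own bears on its counts. In 36 of the 67 genes at least 50% of the 75-base exon windows were found in no other GENCODE M21 gene, in 31 genes fewer, and in 5 genes none (Hist2h2aa1, Hist2h2aa2, Hist2h2bb, Hist2h3b and Hist2h3c1, all of which had 0 counts in every library). The median level was 0.414 CPM per kb in the 36 genes and 0.0984 CPM per kb in the 31. The genes also differ in how far the annotation runs past the stem-loop. In 25 genes with an extended form (at least 50 annotated bases after the stem-loop), 19 with a short form and 23 with no stem-loop, the median was 0.357, 0.321 and 0.109 CPM per kb. The extended genes held 47.3 and 40.9 CPM in Control and 42.4 and 58.2 in Eya1cKO, a ratio of 1.14 that was 0.918 without Hist3h2a, and the short genes 6.01 and 6.70 against 2.52 and 2.85 CPM, a ratio of 0.422. Median unique windows were 77.9% and 34.5% in these groups, so that the form and the uniqueness of the genes cannot be told apart here.

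**Figure D3:**
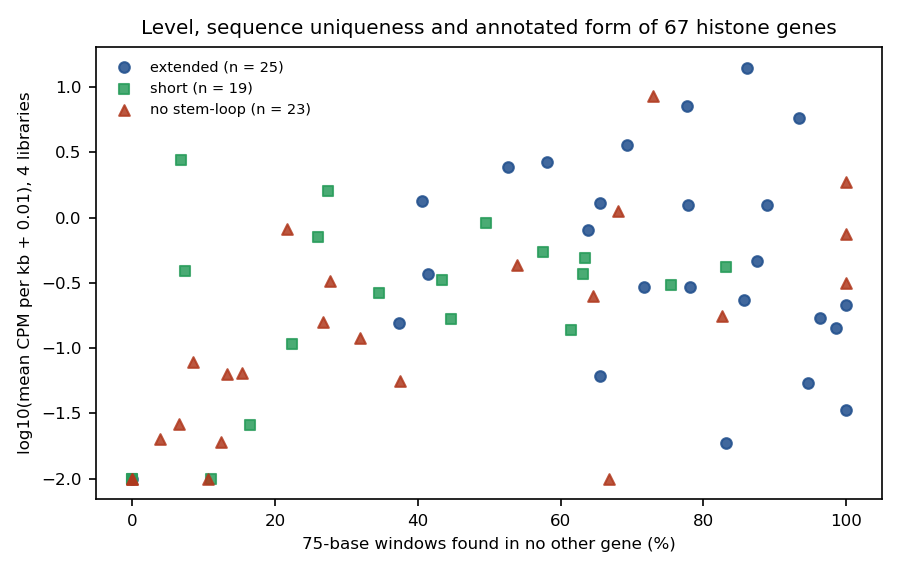
Mean level over the 4 libraries, as log10(CPM per kb + 0.01), against the percentage of 75-base windows found in no other gene, for all 67 clustered histone genes, with the annotated form as colour and symbol. Genes with no unique window lie at the bottom left with 0 counts, and genes of the extended form are mostly on the right.

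Of the 11 replication-independent histone genes, 5 fell in Eya1cKO and 0 rose (0 at an unadjusted p under 0.05 and 0 in DESeq2), with a median log2 fold change of -0.43. These were H2afz (-0.70), the H2A.Z of promoters, H2afx (-0.60), the histone phosphorylated at DNA breaks, the macroH2A genes H2afy (-0.65) and H2afy2 (-0.53), and Cenpa (-0.56), the H3 of centromeres, with adjusted p from 0.00601 to 0.0448 in edgeR. H1f0, the H1 that accumulates in cells that stop dividing, was at 326 ± 5.66 and 332 ± 33.0 CPM (log2 fold change 0.021, SE 0.089). Of 19 genes for transcription of histone genes and processing of their mRNA, 4 fell and 0 rose: Pou2f1 (-0.56), the octamer factor, Sympk (-0.47), a subunit of the cleavage complex, and the cyclins E that drive entry into S phase, Ccne1 (-0.93) and Ccne2 (-1.64). The range ran from -2.08 (SE 0.69, adjusted p = 0.104 in edgeR) for Zfp473, a zinc finger protein of histone mRNA 3′ processing, to 0.38 for Hinfp, a factor of H4 promoters. Npat, the coactivator of histone loci, had a log2 fold change of -0.17 (SE 0.23) and Slbp, the stem-loop binding protein, of -0.22 (SE 0.13), and neither passed the test. Of 15 chaperone and assembly genes 6 fell and 0 rose, among them Nasp (-1.02), which holds the pool of soluble H3 and H4, the CAF-1 genes Chaf1a (-0.75), Chaf1b (-0.65) and Rbbp4 (-0.43), Nap1l1 (-0.63), a chaperone of H2A and H2B, and Hjurp (-0.52), that of Cenpa. Asf1a stood lowest at -1.20 (SE 0.38, adjusted p = 0.0979 in edgeR) and Ubn1 highest at 0.12. Of 22 S-phase genes 15 fell and 0 rose, with a median of -0.70. They included the helicase genes Mcm2 (-0.54), Mcm3 (-0.58), Mcm4 (-0.50), Mcm5 (-0.75), Mcm6 (-0.55) and Mcm7 (-0.82), the loading factor Cdc6 (-1.04), the fork genes Pcna (-0.81), Rpa2 (-1.34) and Lig1 (-0.69), the nucleotide synthesis genes Rrm1 (-0.69), Rrm2 (-0.90) and Tyms (-0.70), and Uhrf1 (-0.72). Fen1, a nuclease of the replication fork, stood highest and had a log2 fold change of 1.44 (SE 0.88, adjusted p = 0.326 in edgeR). Of 9 mitosis genes 6 fell and 0 rose, with a median of -0.65: Bub1 (-1.02), Plk1 (-0.79), Top2a (-0.67), Aurkb (-0.65), Cenpe (-0.45) and Mki67 (-0.40). Cdk1 had a log2 fold change of -0.095. In these last 4 lists too, 0 genes were higher at an unadjusted p under 0.05 and 0 in DESeq2. Without Control 1 or without Control 2, 0 of the 76 genes in these 5 lists passed as lower, against 36 with all libraries, 56 without Eya1cKO 1 and 60 without Eya1cKO 2. Over all genes the numbers called lower were 8, 7, 839, 3271 and 3482 in the same order of fits. Ccne2, Plk1 and H2afy are genes that the study picked from these samples, so their direction is no independent evidence.

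**Figure D4:**
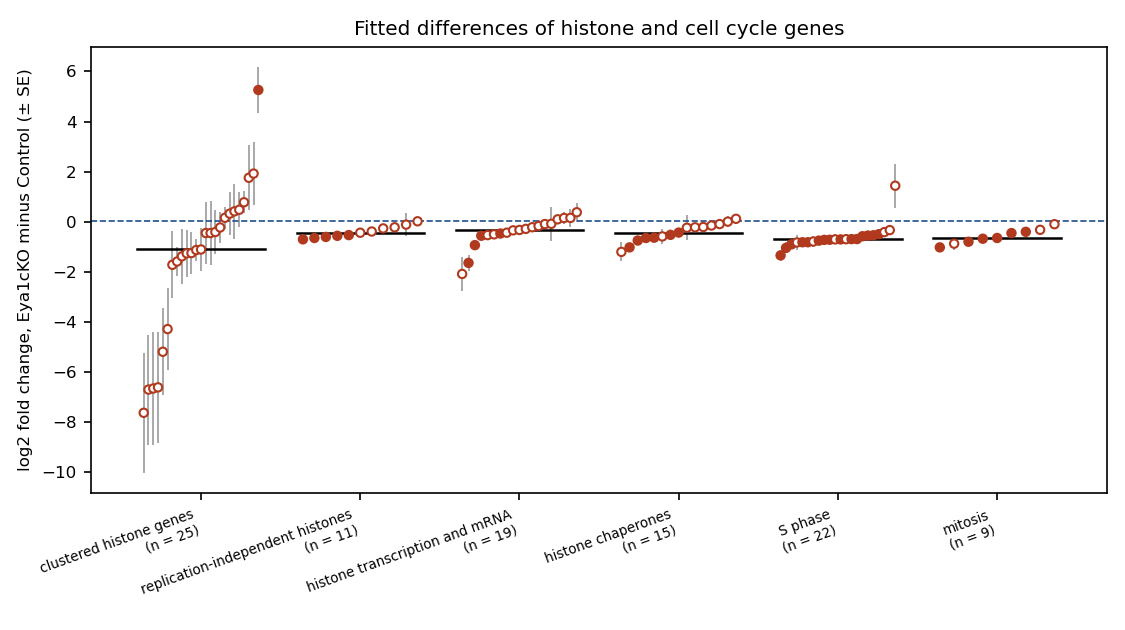
Fitted log2 fold change (Eya1cKO minus Control) ± SE of the 25 tested clustered histone genes and of 5 lists of related genes, with filled points past an adjusted p of 0.05, black lines at the list medians and a dashed line at the median of all genes tested (0.016). The clustered histone genes spread from below -7 to above 5 with long error bars, and their 4 lowest points had 0 counts in both Eya1cKO libraries, so that their position depends on edgeR's prior count. The other lists lie mostly between -1 and 0 with short bars.

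Levels of cell type markers differed between the genotypes as well. Eya1, the targeted gene, had 6612 and 6420 counts in Control and 377 and 219 in Eya1cKO (log2 fold change -3.60, SE 0.18, adjusted p = 1.95e-04 in edgeR). Of 7 nephron progenitor markers 6 fell, with summed levels of 1420 CPM in both Control libraries and 334 and 305 CPM in Eya1cKO, and of 5 ureteric bud markers 2 fell, from 137 CPM in both to 58.4 and 37.3 CPM. All 5 podocyte markers rose (475 and 489 against 2150 and 2170 CPM), as did 4 of 5 stroma markers (1670 and 1660 against 3140 and 3390 CPM) and all 5 endothelial markers (475 and 485 against 794 and 840 CPM). All 5 adrenal cortex markers rose from summed levels of 15.2 and 10.5 CPM to 646 and 630 CPM, and all 5 sympathoadrenal markers from 2.61 and 2.80 to 320 and 359 CPM. Of 5 macrophage markers 0 passed (92.5 and 95.3 against 86.5 and 111 CPM; 1 was higher at an unadjusted p under 0.05, and 0 passed in DESeq2). The 5 erythroid markers had at most 25 counts in a library, 2 of them were at 0 throughout, and none could be tested. Apart from those 2, no marker of these lists was at 0 in all libraries. The part of these cell types in the histone values was not tested, and in sorted populations fewer cells of a type and less RNA per cell cannot be told apart.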

How the data were processed

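RNA of 5000 sorted cells per library was sequenced by the authors from 1 end with 75-base reads, which they mapped to mm10 with HISAT2 and counted on Ensembl genes with HTSeq-count. These raw counts, not normalized, are what the authors deposited. The strand setting of the counting is not given in the sources used here, so overlapping genes on either strand are uncertain. Of the records in the 4 files, 13.9%, 12.9%, 22.7% and 20.9% lay on no gene, 6.32%, 6.69%, 12.9% and 12.7% were not aligned, and 9.06%, 9.06%, 8.00% and 7.95% were not uniquely aligned and so not counted, in the order Control 1, Control 2, Eya1cKO 1 and Eya1cKO 2. They were left out of library totals.

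The counts were fitted with edgeR 4.0.16 under R 4.3.3, using filterByExpr with a minimum count of 10, TMM scaling, and glmQLFit and glmQLFTest on genotype over all genes that passed, with Benjamini-Hochberg adjustment and a threshold of 0.05. Each SE was derived from the log2 fold change and its F statistic. DESeq2 1.42.0 was the alternative test. Exact 95% intervals of ratios treat the pooled counts as binomial. A fold against 0 counts sets the Control mean against a floor of 3 counts in the shallower Eya1cKO library. It covers counting error only, not the spread between libraries. No test was made of summed levels, since 2 against 2 libraries cannot give an exact permutation p below 0.333.

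Symbols, coordinates, exons and stop codons came from GENCODE M21, which is later than the annotation counted on and shares its genome build (GRCm38). Of the counted genes, 52489 were matched to it. Uniqueness of 75-base windows was computed over all GENCODE M21 transcripts on both strands in place of the genome as first planned. Zcchc6 was found under its newer symbol. The clustered genes named are those past the threshold, the 3 most abundant of each type, the tested genes of largest change in each direction, all H1 genes with more than 10 counts in a library and the 2 most abundant genes of each small cluster. In the related lists, all genes past the threshold and both ends of the range are named, except 1 gene that is not reported here. Hist1h1t, Hist1h2ae, Hist1h2bb, Hist1h2bg, Hist1h2bh, Hist1h2bj, Hist1h2bm, Hist1h2bp, Hist1h3b, Hist1h3c, Hist1h3i, Hist1h4j, both pseudogenes and the genes without unique sequence were named after their values were seen. The members and all lists were chosen with earlier results of these data known. The labels number the libraries of each genotype 1 and 2, but same-numbered libraries did not deviate together (correlation 0.0062 over 19041 genes), so the numbers were not taken as pairs. The labels give 6 kidneys per genotype, whereas the methods give other numbers, and neither ties a library to an embryo. Alternatives were other scalings, filters and tests, a replicate block, thinned Control counts, unique genes only and each library left out. Sums without Hist3h2a and the direction of every tested gene with a library left out were added after seeing the data.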

Additional observations from a re-analysis of the deposited data

How the results depend on the processing

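With each library left out in turn, 0 to 3 clustered histone genes were called lower and 0 to 3 higher. The calls of 2 or 3 lower and 3 higher came without an Eya1cKO library, when 14.8% to 15.5% of all genes were called lower and 18.7% to 19.8% higher. The median log2 fold change of those tested lay between -2.32 and -0.58. The arm with 1 library was then assumed to vary like the other. Without Eya1cKO 1 the calls were Hist1h1c and Hist2h2be lower and Hist1h2ae, Hist1h3f and Hist3h2a higher. Without Eya1cKO 2 they were Hist1h1c, Hist2h2be and Hist3h2a lower and Hist1h2bc, Hist1h3f and Hist1h3i higher. With each library left out Hist1h3f, whose direction was fixed, had log2 fold changes from 4.62 to 6.24 and no longer passed without either Control library, and it passed in every other alternative in which it was tested; with at least 10 counts in every library it was not tested, and 0 of the 8 genes left were called higher. The replicate block, for numbers that did not pair the libraries, kept that call (5.25, adjusted p = 0.032) and left 18 of 76 genes of the 5 related lists called lower, against 36 of 76, while over all genes the number called lower went from 839 to 263; with each library left out that count ran from 0 to 60, and from 0 to 2 were called higher.

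The median log2 fold change was -2.04 with no low-count filter (59 genes), -0.05 with at least 10 counts in every library (8 genes), -1.58 with DESeq2's Wald test, -0.51 with thinned Control counts (21 genes) and -0.45 for the 21 tested genes with at least 50% unique windows. Direction turned with a library left out in 9 of the 25 genes tested: Hist1h1d (from -1.46 to 0.31), Hist1h2ae (from -2.04 to 2.88), Hist1h2bg (from -0.86 to 1.09), Hist1h2bh (from -1.46 to 3.47), Hist1h2bj (from -6.95 to 0.36), Hist1h3d (from -8.39 to 1.23), Hist1h4i (from -1.42 to 0.28), Hist3h2a (from -5.92 to 3.09) and Hist3h2ba (from -0.33 to 0.43). Of 197 values of 16 single genes under the alternatives, 181 kept their direction and their side of the threshold.

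The ratio of all summed levels was 0.669 without the most abundant gene of each type and 0.848 without Hist3h2a. Without its most abundant gene, the ratio was 0.263 for H1, 0.676 for H2B, 0.572 for H4, and 0.921 for H2A and 0.643 for H3, which both turned direction, and with each library left out it ran from 1.52 to 2.42 for H3, from 0.395 to 3.50 for H2A, from 0.333 to 1.15 for H4, from 1.02 to 2.80 for the Hist3 genes, from 0.778 to 1.09 for H2B and from 0.918 to 1.08 for all genes together, so that H2A, H4, H2B and the sum of all turned direction. Eya1 kept its call in every alternative run, with log2 fold changes from -3.86 to -3.45.

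Of the 67 genes, 42 had too few counts for a test, and the cause was not tested. At these depths 3 counts stand for 0.133 CPM in Eya1cKO 1 and 0.171 CPM in Eya1cKO 2.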

Other observations

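Among clustered histone genes too low for the test, Hist1h3i had 1 count in each Control library, 29 in Eya1cKO 1 and 0 in Eya1cKO 2, and Hist1h3b had 30, 1, 0 and 0 counts, so that single libraries held nearly all of their reads. Hist1h2bh, which was tested, had 62 counts in Control 1 and 2 in Control 2, followed by 19 and 7 in Eya1cKO (log2 fold change -0.45, SE 1.28, adjusted p = 0.853 in edgeR). Hist1h2bp and Hist1h2bb, each with 12 counts or more in both Control libraries, had 0 in both Eya1cKO libraries. Their Control means were 2.95-fold and 2.86-fold above the floor of 3 counts, which covers counting error only. Of all genes with a Control mean from 10 up to 40 counts, 23.3% were at 0 in both Eya1cKO libraries. The annotated pseudogenes Hist1h2aj and Hist1h2al had 5, 18, 4 and 0 counts and 7, 20, 6 and 0 counts.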
